A study of Homo sapiens with 8 samples.

Results

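The comparison described here sets HaCaT keratinocytes that carried a dominant negative HRAS against the same cells with a control vector, with no TGF-beta added to either. It rests on 2 of the 8 arrays of the study, chosen by their titles: 1 array of cells infected with an adenovirus for HRAS N116Y, and 1 of cells infected with an adenovirus for LacZ, a bacterial enzyme used as the control insert. HaCaT is an immortalized line of human epidermal keratinocytes, grown here in medium with 10% fetal bovine serum, so both cultures received the growth factors of serum. The other adenovirus arrays, used below beside the pair, came from cells with HRAS G12V, a constitutively active RAS, without TGF-beta, and from cells with each of the 3 vectors given 5 ng/ml TGF-beta3 for 24 h. The rest, arrays of siRNA-treated cells, are not used. No source used here gives the promoter that drives the inserts, the dose of virus or the time from infection to harvest. Each group held 1 array, so every ratio below is a difference between 2 hybridisations with no replicate, and it carries no p.

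RAS proteins are small GTPases of the inner plasma membrane that are switched on when exchange factors such as SOS load them with GTP downstream of growth factor receptors. Active RAS recruits RAF kinases and so starts the MEK and ERK cascade, and it also feeds the PI3K and AKT pathway. The N116Y form binds nucleotide poorly and is used as a dominant negative because it ties up exchange factors that endogenous RAS needs. In keratinocytes the EGF receptor is a main source of RAS and ERK activity, and that pathway is known for driving proliferation and migration and for holding back parts of terminal differentiation. Feedback genes such as the dual-specificity phosphatases and the Sprouty proteins are transcribed in response to ERK and are commonly used as a readout of its output.

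Signal was the deposited MAS5 value of a probe set, a linear intensity rescaled so that the trimmed mean of each array was 100. A gene entered the comparison when its signal reached 50 on 1 of the 2 arrays, and signals below a floor of 20 were set to 20, which makes ratios of dim genes smaller than they were. Of 19775 genes named on the array, 8805 entered. The 2 arrays were alike in their overall measures: 29.3% of probe sets reached a signal of 50 on the LacZ array and 29.9% on the N116Y array, and the ratio of 3′ to 5′ actin signal, a sign of RNA quality, was 1.21 and 1.22. In what follows, where a pair of signals is given with no array named, LacZ comes first and HRAS N116Y second. Keratinocyte markers were at high signal on both arrays: KRT14 read 5953 and 6417, KRT5 read 3237 and 4766, and SFN read 7408 and 8186. A label field of source names gives the pair as stimulated, against the titles and the stimulation field. It gives the opposite TGF-beta state to the titles for all 6 adenovirus arrays. On the arrays titled as TGF-beta treated, 19 of 20 measured SMAD-induced genes were higher than on the array titled untreated for LacZ. The counts were 20 of 21 for HRAS N116Y and 18 of 21 for HRAS G12V. Groups were taken from the titles. In such bulk RNA, fewer cells of a kind and less RNA per cell cannot be told apart.

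Most genes differed little between the arrays. The median log2 ratio of N116Y to LacZ was 0.03, 55.0% of genes had a ratio above 0, 91.3% of genes were within 1.5-fold, and 95% of the ratios lay between -0.65 and 0.80. In all, 104 genes (1.18%) were at least 2-fold higher with HRAS N116Y and 62 genes (0.704%) were at least 2-fold lower; 11 and 4 of them were at least 4-fold apart. With the mean over a gene's probe sets the counts were 67 and 34, and with a floor of 50 they were 69 and 41. Near the threshold the choice of genes is arbitrary, since 19 higher genes had a log2 ratio between 1.0 and 1.1 while another 52 lay between 0.9 and 1.0. Among genes with a signal of 100 on the higher array and above the floor on both, the 15 highest ratios were 3.38-fold to 8.62-fold and the 15 lowest 2.52-fold to 7.73-fold lower. Among the former were the chemokines CCL5 and CCL2, the cytokine-like gene IL32, the tumour necrosis factor-induced gene TNFAIP2 and the interferon-stimulated genes PLAAT4 and TRIM22. Among the latter were the interleukin-1 receptors IL1RL1 and IL1R2, the ERK phosphatase DUSP6, the EGF receptor ligand EREG and the hyaluronan genes CEMIP and HAS2.

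**Figure D1:**
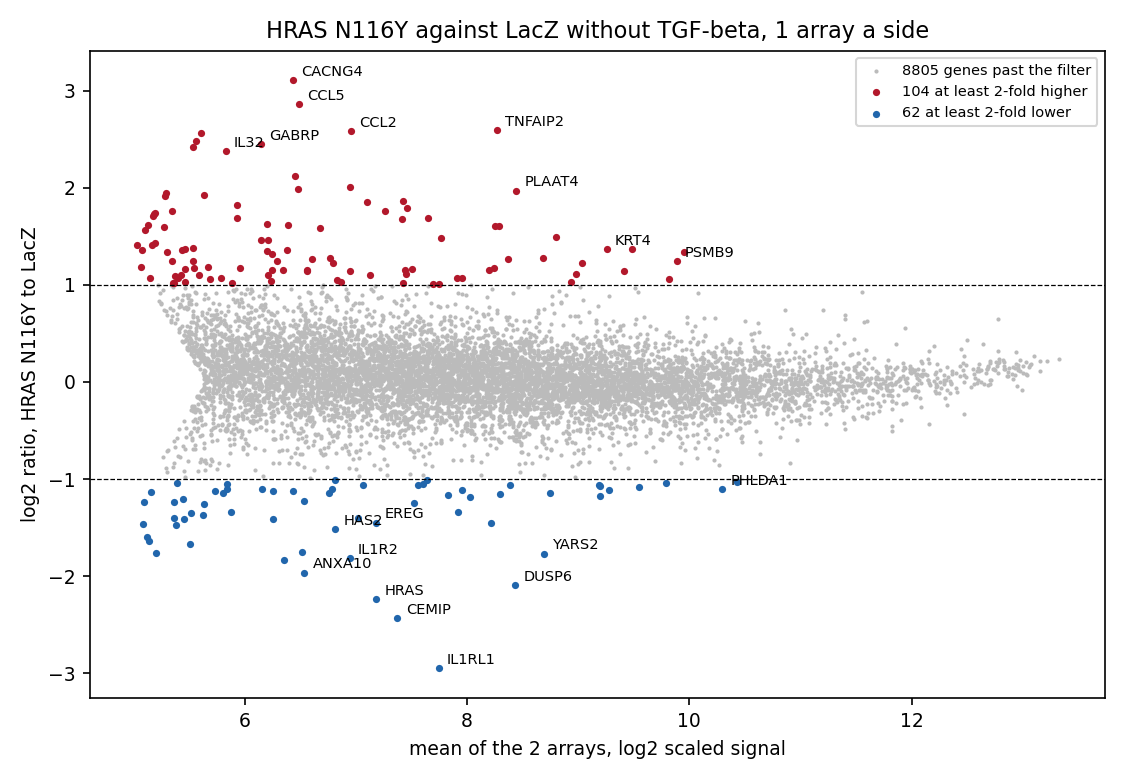
Log2 ratio of HRAS N116Y to LacZ (vertical axis) against the mean log2 scaled signal of both arrays (horizontal axis), 1 point per gene, for 8805 genes. The 104 red genes are at least 2-fold higher and the 62 blue genes at least 2-fold lower; the lowest point is IL1RL1 and the highest is CACNG4.

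Because the pair has no error of its own, an additive limma model of vector and TGF-beta over the 6 adenovirus arrays was set beside it. This fit gives the effect of HRAS N116Y averaged over both TGF-beta states, and it does not test the untreated ratio. It contains the pair itself, so for genes chosen by their untreated ratio its p is not independent of that choice; the pair with TGF-beta3 is on separate arrays. Of 8985 genes, 134 rose (1.49%) and 72 fell (0.801%) at an adjusted p under 0.05; "rose" and "fell" below refer to this fit alone. Leaving out both HRAS G12V arrays gave 284 and 154 genes, averaging each gene's probe sets gave 30 and 15, and testing with no filter gave 0 and 0. Its median residual SD was 0.152 (log2), which gives a single difference of 2 arrays an SD of about 0.216 for a gene at that median. Of the 134 rising genes, 18 reached the filter of the fit only on N116Y arrays, and of the 72 falling genes 10 reached it only on the others. Such genes had to differ to be tested, so below they are described by signals with no p, although the counts of calls include them. At an unadjusted p under 0.05, 804 genes (8.9%) rose and 521 (5.8%) fell.

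HRAS itself read 315.7 on the LacZ array and 67.09 on the N116Y array, 4.70-fold lower. Its signal was also 108.8 with HRAS G12V, and with TGF-beta3 it was 287.0 for LacZ, 58.09 for N116Y and 86.09 for G12V. All 4 arrays of cells with an HRAS insert were thus below both LacZ arrays. The gene has 1 probe set on this array, and no source used here places it relative to the insert, so the signal checks nothing about the vectors. The other 9 measured RAS family members, exchange factors and GTPase-activating proteins past the filter stayed within 2-fold, from RASA2 at -0.71 to RRAS at 0.51, and none of them rose or fell.

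Most listed genes of the transcriptional output of the RAS and ERK pathway had lower signals with HRAS N116Y. Of 17 measured genes of this output past the filter, 14 had a ratio below 0, with a median log2 ratio of -0.54 against 0.03 over all genes. Of all 8805 genes compared, 3965 had a ratio below 0. DUSP6, the phosphatase that removes the activating phosphates of ERK, had signals of 714.4 on the LacZ array and 167.6 on the N116Y array, 4.26-fold lower. Its 3 probe sets were all at least 2-fold lower, with log2 ratios of -2.09 to -1.50. On the other 4 arrays DUSP6 read 785.3 with G12V, and with TGF-beta3 1041 with LacZ, 335.7 with N116Y and 1922 with G12V. The N116Y arrays were the lowest of the 6 whether TGF-beta3 was present or not, and the averaged change was -1.86 ± 0.17 (SE; limma adjusted p = 0.000614, n = 6 arrays).

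PHLDA1, a growth-factor-induced gene, read 1839 with LacZ and 856.3 with N116Y, and its averaged change was -1.22 ± 0.14 (SE; limma adjusted p = 0.0017). All 6 of its probe sets had a negative ratio and 4 were at least 2-fold lower. The remaining members were closer together. DUSP4, another phosphatase of the MAP kinases, read 165.1 and 99.79, the ETS factor ETV4 136.0 and 68.39, and the early response gene IER3 1583 and 903.7. These 3 genes had untreated log2 ratios between -0.99 and -0.73 and fell (limma adjusted p from 0.0157 to 0.0253). The ETS factor ETV5 read 49.79 and 26.8, just under the filter of the pair, and 112.4 and 37.49 with TGF-beta3. In all, 6 of 18 tested members fell and 0 rose in limma, against 0.801% and 1.49% of all genes. The 6 include ETV5, which reached the filter of the fit only on arrays without N116Y. At an unadjusted p under 0.05, 10 of the 18 fell and 1 rose, against 5.8% and 8.9% of all genes. The feedback inhibitors SPRY2 (144.8 and 79.09) and SPRED2 (219.5 and 142.8) were lower too, but their averaged changes gave limma adjusted p-values of 0.0575 and 0.207. The 3 members above 0 were the ephrin receptors EPHA4 (0.43) and EPHA2 (0.11) and the kinase-like TRIB1 (0.05). The ERK phosphatase DUSP5 (-0.09) and the cyclin CCND1 (-0.07) were near 0. EMP1 had a log2 ratio of -0.24, and with TGF-beta3 those of CCND1 and EMP1 were 0.21 and 0.13, while that of DUSP5 was -1.23. Immediate early and AP-1 genes, which ERK also induces, had a ratio above 0 in 7 of 12 cases, near the 55.0% of all genes, with a median of 0.10. In limma 2 of 13 tested members fell and 1 rose, against 0.801% and 1.49% of all genes. FOSL1, an AP-1 subunit, read 525.4 and 310.4 and MAFF, a small MAF factor, 703.9 and 357.9, and both fell (limma adjusted p = 0.0232 and 0.0163). ATF3, a stress-induced factor, read 86.39 and 148.2 and rose (limma adjusted p = 0.0486), and JUNB read 100.4 and 175.7 without passing (limma adjusted p = 0.426).

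**Figure D2:**
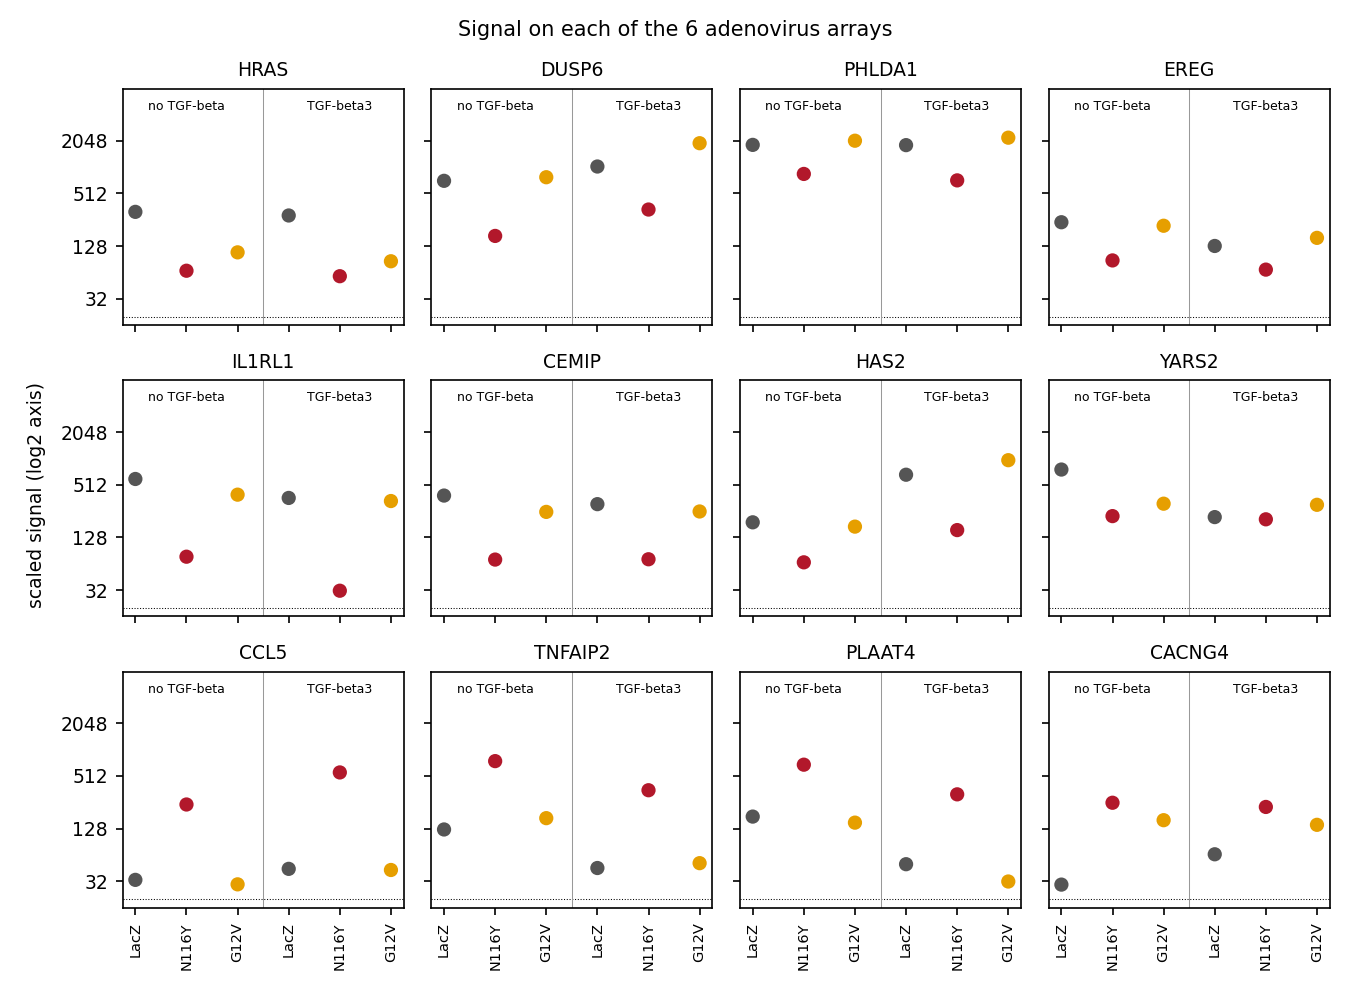
Scaled signal (log2 axis) of 12 genes on each of the 6 adenovirus arrays, 1 point per array; grey is LacZ, red is HRAS N116Y and orange is HRAS G12V, and the dotted line is the floor of 20. DUSP6, PHLDA1, EREG, IL1RL1, CEMIP and HAS2 are lowest and CCL5, TNFAIP2, PLAAT4 and CACNG4 highest on the N116Y array of each TGF-beta state, while YARS2 is high on the untreated LacZ array alone.

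The 4 ligands of the EGF receptor family past the filter were lower as well, although 1 alone passed the test. In limma 1 of 9 tested members of the EGF family list fell and 0 rose, against 0.801% and 1.49% of all genes. Of the 9 members past the filter, 7 had a negative ratio, with a median of -0.59. They were the 4 ligands past the filter, the receptor ERBB3 (-0.06), and ERRFI1 (-0.59) and LRIG3 (-0.71), of which ERRFI1 is a feedback inhibitor of EGFR. Epiregulin (EREG), a ligand of EGFR and ERBB4, had signals of 240.3 with LacZ, 87.99 with N116Y and 219.1 with G12V. With TGF-beta3 it had 128.7, 69.09 and 159.3 in the same order, and it fell by 1.17 ± 0.20 on the log2 scale (SE; limma adjusted p = 0.0148). The mean over its 2 probe sets gives a smaller untreated ratio of -0.72. Further ligands were lower without passing: TGFA read 413.5 and 278.2, HBEGF 156.0 and 95.49, and NRG1, a ligand of ERBB3 and ERBB4, 644.9 and 388.0 (limma adjusted p between 0.0541 and 0.0868). The receptors showed no such shift: EGFR read 806.8 and 917.1, ERBB2 237.3 and 324.1, and ERBB3 249.6 and 239.3. None of the 3 receptors passed in the fit of the 6 arrays. BTC, EGF, ERBB4 and LRIG1 did not reach the filter, and the ligands AREG and EPGN were not among the genes measured.

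Interleukin-1 family genes held the lowest ratio of the whole comparison. IL1RL1, the ST2 receptor that binds interleukin-33, read 595.8 with LacZ and 77.09 with N116Y, 7.73-fold lower. G12V cells read 394.4, and with TGF-beta3 the signals were 361.8 for LacZ, 31.5 for N116Y and 333.5 for G12V, so the N116Y arrays lay far below the other 4. The averaged fall was 3.24 ± 0.23 on the log2 scale (SE; limma adjusted p = 0.000184). All 3 of its probe sets past the filter were at least 2-fold lower, between -2.95 and -1.36, and the mean of all 4 gives -1.48. IL1R2, the decoy receptor for interleukin-1, was 3.51-fold lower, with signals of 230.8 and 65.69, and the cytokines IL1A (119.4 and 66.39) and IL1B (192.8 and 106.4) were 1.80-fold and 1.81-fold lower. These 4 genes were the members that fell, of 9 tested, against 0.801% of all genes. The signalling receptor IL1R1 (322.7 and 319.8), its partner IL1RAP (635.7 and 587.1) and the antagonist IL1RN (1289 and 1144) were close to level. Over the 10 members past the filter the median was -0.41, and the median for HRAS G12V, measured against the same LacZ array, was -0.28. Interleukin-33, the ligand of IL1RL1, was below the floor on all 6 arrays, as were IL36A, IL36B and IL36RN.

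Hyaluronan genes were lower at both ends of its turnover. CEMIP, which is needed to break down hyaluronan in skin cells, read 385.1 and 71.49, 5.39-fold lower, and it fell by 2.26 ± 0.17 (SE, log2; limma adjusted p = 0.000197). HAS2, a hyaluronan synthase at the plasma membrane, read 190.5 and 66.49, 2.86-fold lower, and fell by 1.81 ± 0.25 (limma adjusted p = 0.00523); both of its probe sets were at least 2-fold lower. The 2 members were the only ones of 8 tested that fell, against 0.801% of all genes. A second synthase, HAS3, read 685.3 and 381.6 without passing (limma adjusted p = 0.0614). CD44, the main hyaluronan receptor, read 2939 and 2413. In prostaglandin metabolism, PTGS1, the constitutive cyclooxygenase, was 3.36-fold lower at 167.7 and 49.89, whereas HPGD, the enzyme that inactivates prostaglandins, was 2.16-fold higher at 344.0 and 744.5. With TGF-beta3 PTGS1 read 132.7 with LacZ and 37.79 with N116Y; it reached the filter of the fit only on arrays without N116Y. HPGD rose (limma adjusted p = 0.00332), while the inducible PTGS2 read 237.1 and 266.0.

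Chemokine transcripts made up 2 of the 4 highest ratios. CCL5, which attracts T cells and monocytes, had signals of 33.3 with LacZ, 241.9 with N116Y and 29.6 with G12V, and with TGF-beta3 44.49, 562.3 and 43.19 in the same order. Both N116Y arrays were thus above all others. CCL5 reached the filter of the fit on the N116Y arrays alone, so no p is given for it. All 3 CCL5 probe sets were at least 2-fold higher. CCL2, which attracts monocytes, read 50.59 and 303.2, against 20.9 with G12V, and reached 1761 on the N116Y array with TGF-beta3 against 118.0 with LacZ. Its averaged rise was 3.24 ± 0.27 (SE, log2; limma adjusted p = 0.000355) from 1 probe set. CXCL16 (480.9 and 691.4) and CXCL6 (177.4 and 276.7) differed less in the pair and also rose (limma adjusted p = 0.0335 and 0.0409). CXCL8, a neutrophil attractant, was 1.61-fold lower at 741.5 and 460.9 but higher with TGF-beta3, at 769.7 with LacZ and 1017 with N116Y. CXCL1, also a neutrophil attractant, was level at 300.3 and 306.8. The other 14 chemokines of the list, among them CCL20, CXCL10 and CXCL14, did not reach the filter.

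Further NF-kappaB targets were higher in part. Of 20 members past the filter 16 had a positive ratio (55.0% of all genes), with a median of 0.32 (0.03 over all genes). Of 18 tested, 3, IL32 included, rose and 1, the IER3 already given, fell, against 1.49% and 0.801% of all genes. TNFAIP2, a gene induced by tumour necrosis factor, read 125.4 and 757.3, 6.04-fold higher, and rose by 2.77 ± 0.19 (SE, log2; limma adjusted p = 0.000184); the mean of its 2 probe sets gives 1.64. The inhibitor NFKBIA, itself an NF-kappaB target, read 454.6 and 842.3 and rose (limma adjusted p = 0.0044). IL32, a cytokine-like gene, read 24.9 and 129.5 with 1 probe set, 38.89 and 205.3 with TGF-beta3, and reached the filter of the fit on the N116Y arrays alone. Complement factor CFB (22.1 and 75.09) was too dim to be tested. Outside this list, LCN2, an iron-binding lipocalin, read 130.0 and 363.8 without passing (limma adjusted p = 0.0687).

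Interferon-stimulated genes were mostly a little higher. Of 39 past the filter, 34 had a positive ratio, against 55.0% of all genes, and the median was 0.31 against 0.03. In the pair 5 were at least 2-fold higher and 0 at least 2-fold lower, against 1.18% and 0.704% of all genes. PLAAT4, a retinoid- and interferon-induced phospholipase, read 176.0 and 689.5, TRIM22, an antiviral ubiquitin ligase, 95.09 and 328.0, and SAMD9L, an antiviral restriction factor, 266.2 and 749.5. EPSTI1, an interferon-induced gene of epithelia and stroma, read 342.5 and 697.5. These 4 genes rose, with limma adjusted p-values from 0.00066 to 0.00291. GBP2, an interferon-induced GTPase, read 33.8 and 76.49 and is one of the genes admitted by the N116Y arrays alone. In all 11 of 40 tested members rose, GBP2 included, and 0 fell in limma, against 1.49% and 0.801% of all genes. At an unadjusted limma p under 0.05, 26 rose and 0 fell, against 8.9% and 5.8% of all genes. SAMD9L was at least 2-fold higher on each of its 3 probe sets. Further members differed by less than 2-fold, from DDX60 (955.0 and 670.0, a log2 ratio of -0.51) upward. ISG15 read 657.6 and 977.4, RSAD2 172.2 and 296.4, and IFI35 88.89 and 168.1, and all 3 rose (limma adjusted p from 0.0218 to 0.0409). IFIT1 read 1159 and 1423, IFIT2 963.2 and 1053, IFIT3 1776 and 2201, OAS1 191.3 and 277.4, and OAS3 314.5 and 303.8, and these 5 did not pass. For IFIT3 the log2 ratio was 0.31 without TGF-beta and 2.43 with TGF-beta3, where the LacZ signal was 375.8 and the N116Y signal 2022. Over the list the median was 0.31 without TGF-beta and 0.90 with it. IRF1, a transcription factor of this response, was just under 2-fold higher at 186.3 and 371.6.

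Genes of class I antigen presentation were higher with HRAS N116Y. All 16 members past the filter had a ratio above 0, against 55.0% of all genes, from 0.20 to 1.24 with a median of 0.62. The immunoproteasome subunits PSMB9 (615.3 and 1457) and PSMB10 (459.5 and 1013) were 2.37-fold and 2.20-fold higher. TAPBP, the chaperone that loads peptide on class I molecules, read 521.4 and 1019, and HLA-F read 784.5 and 1485. These 4 genes were among the 5 of 15 tested members that rose, and 0 fell, against 1.49% and 0.801% of all genes. Class I genes are near-identical in sequence, so the probe sets of HLA-F and HLA-G may read other members of the family. CTSS, a lysosomal protease of antigen processing that is not in this list, read 61.39 and 247.0 and rose by 1.70 ± 0.24 (SE, log2; limma adjusted p = 0.00649).

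The promoters of 4 genes at least 2-fold apart are shown as examples of the motifs that were searched for. The sequences are the 250 bases before the RefSeq start of each gene in GRCh38.p14, written 5′ to 3′ on the strand of the gene, with motif matches in capitals. The IL32 stretch is chr16:3065153-3065402 on the plus strand, and its capitals mark overlapping matches to the NF-kappaB consensus that begin 99 and 98 bases before the start.
IL32: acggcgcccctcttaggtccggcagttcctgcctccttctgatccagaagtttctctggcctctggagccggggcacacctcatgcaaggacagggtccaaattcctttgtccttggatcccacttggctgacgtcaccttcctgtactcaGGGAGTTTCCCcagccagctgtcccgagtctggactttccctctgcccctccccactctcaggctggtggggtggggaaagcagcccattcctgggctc
The EPSTI1 stretch is chr13:42992242-42992491 and that of PSMB10 is chr16:67936851-67937100, both on the minus strand. Their capitals mark the core of the interferon-stimulated response element, GAAANNGAA, 50 and 21 bases before the start.
EPSTI1: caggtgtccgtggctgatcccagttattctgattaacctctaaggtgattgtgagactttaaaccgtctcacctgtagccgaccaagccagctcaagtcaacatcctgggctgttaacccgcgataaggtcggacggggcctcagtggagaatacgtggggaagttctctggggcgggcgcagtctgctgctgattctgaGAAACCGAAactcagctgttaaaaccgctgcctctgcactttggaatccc
PSMB10: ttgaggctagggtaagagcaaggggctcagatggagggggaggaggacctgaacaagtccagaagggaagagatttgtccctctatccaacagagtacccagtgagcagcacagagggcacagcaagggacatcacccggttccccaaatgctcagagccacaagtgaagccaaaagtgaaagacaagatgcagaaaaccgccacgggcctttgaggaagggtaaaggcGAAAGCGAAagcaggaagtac
The stretch of SPRR1B, a lower gene described below, is chr1:153030953-153031202 on the plus strand. Its capitals mark AP-1 sites, TGANTCA, that begin 141 and 111 bases before the start.
SPRR1B: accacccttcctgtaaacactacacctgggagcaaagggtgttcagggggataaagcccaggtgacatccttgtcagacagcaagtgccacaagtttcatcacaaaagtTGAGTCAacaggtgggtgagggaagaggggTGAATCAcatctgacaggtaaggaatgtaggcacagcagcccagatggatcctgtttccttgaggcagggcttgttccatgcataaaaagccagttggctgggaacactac
A match is a description of letters and not a binding site. Promoter windows of 300 bases, reaching 50 bases past the start, were found for 74 of the 104 higher genes, for 47 of the 62 lower genes and for 7374 of the 8805 genes compared; CCL2 and CCL5 had no entry. On both strands, the interferon core was in 7 of the 74 higher windows (9.5%), in 6.4% of the lower ones, in 6.5% of those of all genes compared and in 8.3% of all 27305 windows. The NF-kappaB consensus was in 6 higher windows (8.1%) and 1 lower window (2.1%), against 6.6% of genes compared and 5.7% of all windows. AP-1 sites were in 6.8% of higher and 6.4% of lower windows, against 4.4% and 7.8%. The ETS site CCGGAAGT was in 2.7% of higher and 8.5% of lower windows, against 10.1% and 4.4%. The CArG box was in 0 windows of either set, against 1.1% and 1.3%. Each of these counts is of 7 genes or fewer.

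Differentiation genes did not move as a block. Of 18 cornified envelope and suprabasal genes past the filter, 14 had a ratio below 0 and 4 above, with a median of -0.14. In limma 2 of 18 tested members rose and 2 fell, SPRR2B among the latter, against 1.49% and 0.801% of all genes. SPRR1B, a cross-linked envelope precursor, was 2.63-fold lower at 210.0 and 79.69 and fell by 1.45 ± 0.20 (SE, log2; limma adjusted p = 0.00478), and its relative SPRR2B read 60.39 and 29.3 and, with TGF-beta3, 106.8 and 47.99. The SPRR2 genes are close paralogs, so that probe set may read several of them. Involucrin (IVL), another envelope precursor, went the other way, 2.42-fold higher at 264.1 and 639.6, and rose by 1.83 ± 0.22 (limma adjusted p = 0.00291). Filaggrin (FLG) read 181.8 and 93.19 without passing (limma adjusted p = 0.422). Of 10 keratins past the filter, 9 had a positive ratio, against 55.0% of all genes, with a median of 0.38. KRT4, a keratin of internal stratified epithelia, read 380.9 and 980.3. It was the 1 of 11 tested keratins that rose (limma adjusted p = 0.0034), against 1.49% of all genes. KRT13, the usual partner of KRT4, read 5567 and 7306. The 10 measured keratinocyte markers had a median of 0.01 and none was 2-fold apart. The basal integrin ITGA6 read 2059 and 1232, 1.67-fold lower. It was the 1 of 10 tested markers that fell (limma adjusted p = 0.0159), against 0.801% of all genes.

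Several contractile and matrix genes were higher, but not all. Of 9 mesenchymal and contractile genes past the filter, 7 had a ratio above 0 and 2 below. Of 18 matrix genes 15 were above and 3 below, and 55.0% of all genes were above 0. In limma 3 of 9 tested contractile genes rose and 0 fell. Of 19 tested matrix genes 3 rose and 1 fell, against 1.49% and 0.801% of all genes. Among the contractile genes ACTN1 went the other way at 1490 and 1062 without passing (limma adjusted p = 0.175). TAGLN, an actin-binding protein, read 72.09 and 261.2, 3.62-fold higher, and rose by 1.62 ± 0.18 (SE, log2; limma adjusted p = 0.00148); TPM1, a tropomyosin, read 1166 and 1801 and rose (limma adjusted p = 0.0161). The myosin light chain MYL9 was below the floor with LacZ and 111.3 with N116Y, and the fibrillar collagen COL3A1 was below it with LacZ and 107.2 with N116Y, so their ratios of 2.48 and 2.42 rest on the floor. COL5A1 read 21.1 and 54.19. COL5A1 rose (limma adjusted p = 0.0252), while MYL9 and COL3A1 reached the filter of the fit on the N116Y arrays alone. With TGF-beta3 MYL9 read 45.49 with LacZ and 287.5 with N116Y, and COL3A1 was below the floor and 144.1. With a floor of 50 in place of 20 the ratio of MYL9 is 1.15, that of COL3A1 1.1 and that of COL5A1 0.12. BAMBI, a decoy receptor of the TGF-beta family, read 90.19 and 329.0 and rose by 2.20 ± 0.19 (limma adjusted p = 0.000504). It belongs to the SMAD-induced genes, of which 11 of 18 past the filter had a ratio above 0, with a median of 0.10. Of the 10 fibroblast markers, 8 were below the floor on both arrays, PDGFRA, PDGFRB, DCN, LUM and COL1A2 among them, and COL1A1 read 44.99 and 50.79. The summed signal of this marker list was 99.4 with LacZ, 186.4 with N116Y and 99.3 with G12V. COL3A1 alone made up 17.8, 107.2 and 10.2 of these sums, in the same order. All 8 measured leukocyte markers were below the floor on both arrays, as were 7 of 8 endothelial and 5 of 6 melanocyte markers; the melanocyte list's MITF read 141.9 and 141.7. The part of other cell types in these ratios was not tested.

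Proteases and matrix genes at the cell surface went both ways. The collagenase MMP1 was 2.14-fold lower at 83.89 and 39.19 and fell (limma adjusted p = 0.0109), and the protease inhibitor SERPINE2 (277.0 and 152.4) fell too (limma adjusted p = 0.0044). The basement membrane linker NID1 read 67.09 and 25.4, and 103.2 and 44.49 with TGF-beta3. Collagenase MMP13, below the floor with LacZ, read 65.19 with N116Y, and the plasminogen activator PLAT read 79.29 and 164.1; both rose (limma adjusted p = 0.0178 and 0.0335). NT5E, the ectoenzyme that makes adenosine, was 2.52-fold lower at 383.7 and 152.0, and CD55, which protects cells from complement, was 2.25-fold lower at 340.7 and 151.7. Both fell (limma adjusted p = 0.0173 and 0.00946).

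CACNG4, an auxiliary subunit of calcium channels and glutamate receptors, had the highest ratio, 8.62-fold, with signals of 29.4 and 253.3. It differed from the chemokines in that the G12V array read 160.1, also far above LacZ. With TGF-beta3 the signals were 65.29 for LacZ, 226.8 for N116Y and 141.7 for G12V. It has 3 probe sets of which 1 passed the filter, and their mean gives a ratio of 1.09. GABRP, a subunit of GABA receptors found in epithelia, read 30.2 and 165.3, and the glutamate transporter SLC1A3 read 367.5 and 725.9, while the phosphate transporter SLC20A1 read 1276 and 618.1. GABRP and SLC1A3 rose and SLC20A1 fell (limma adjusted p from 0.000583 to 0.00735).

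Of 14 genes of FOXO and PI3K feedback past the filter, 8 had a ratio above 0, near the 55.0% of all genes, with a median of 0.11. At least 2-fold higher were 2, against 1.18% of all genes. In limma 1 of 14 tested members rose and 0 fell, against 1.49% and 0.801% of all genes. TXNIP, an inhibitor of glucose uptake, read 112.3 and 360.7 and rose by 1.66 ± 0.18 (SE, log2; limma adjusted p = 0.00148), with all 3 probe sets at least 2-fold higher. PIK3IP1, an inhibitor of PI3K, read 34 and 109.7 but 186.3 and 236.1 with TGF-beta3, and did not pass (limma adjusted p = 0.114). IRS1, the insulin receptor adaptor, read 203.1 and 109.0 without TGF-beta and 155.5 and 242.9 with it.

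Cell cycle genes showed no 2-fold difference in the untreated pair. The 33 G1/S and replication genes had a median of -0.09, and the 34 G2/M and spindle genes a median of -0.04; 0 of 32 and 0 of 34 tested members passed in limma, where 13 and 10 fell and 0 rose at an unadjusted p under 0.05, against 5.8% and 8.9% of all genes. With TGF-beta3 the medians of N116Y to LacZ were -0.62 and -0.54 for the same lists. CDKN2B, the p15 inhibitor of CDK4 and CDK6, read 142.3 and 282.8, just under 2-fold higher, and rose by 1.34 ± 0.18 (SE, log2; limma adjusted p = 0.0044). CDKN1A, the p21 inhibitor, read 279.0 and 216.8. Among 20 cholesterol and fatty acid genes the median was -0.27, 0 were 2-fold apart, 10 fell and 1 rose at an unadjusted p under 0.05 (5.8% and 8.9% of all genes), and the enzymes HMGCS1 and MSMO1 and the sterol carrier STARD4 fell after adjustment (886.9 and 567.4, 2574 and 1440, 253.3 and 149.7; limma adjusted p from 0.0192 to 0.0486). The aldo-keto reductases AKR1C1, AKR1C2 and AKR1C3 were 1.91-fold, 2.17-fold and 1.66-fold lower and fell (limma adjusted p from 0.0139 to 0.0369); they are close paralogs that probe sets may not separate. Lists for ribosome biogenesis, endoplasmic reticulum stress, p53 targets, apoptosis and Notch had medians between -0.11 and 0.08 and 0 members 2-fold apart.

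The same vectors were compared on separate arrays with TGF-beta3, where 274 genes (3.07%) were at least 2-fold higher and 143 genes (1.60%) at least 2-fold lower among 8939. Of the 104 genes higher without TGF-beta, 50 were among the 274, which is 48.1% of the first list and 18.2% of the second. Of the 62 lower genes, 23 were among the 143, which is 37.1% and 16.1%. Among the higher genes, 81 passed the filter with TGF-beta3 and 79 of them had a positive ratio there, against 44 of 53 with a negative one among the lower genes. No gene was at least 2-fold apart in opposite directions in the 2 states. The median ratio of the 104 genes was 1.34 without TGF-beta and 1.03 with it, and that of the 62 genes was -1.21 and -0.69.

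**Figure D3:**
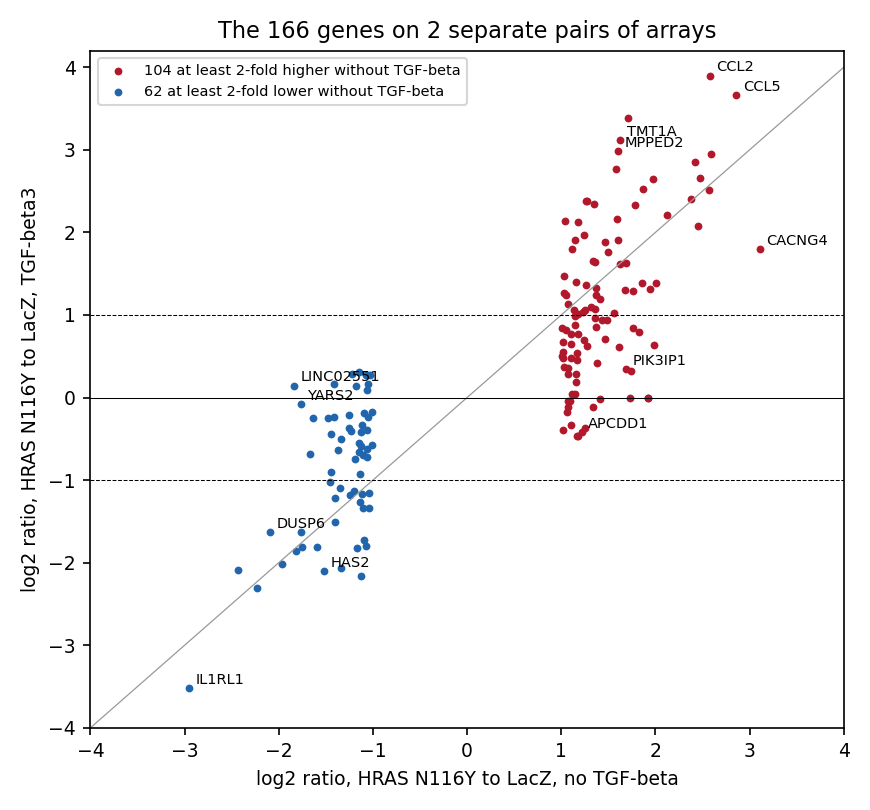
Log2 ratio of HRAS N116Y to LacZ without TGF-beta (horizontal axis) and with TGF-beta3 (vertical axis), from separate pairs of arrays, for the 104 genes at least 2-fold higher (red) and the 62 at least 2-fold lower (blue) without TGF-beta; dashed lines mark 2-fold and the grey line equal ratios. IL1RL1, CCL5 and CCL2 are far from 0 in both states, while YARS2, LINC02551 and APCDD1 are near or past 0 with TGF-beta3.

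Some large ratios were found in the untreated pair alone. YARS2, the mitochondrial tyrosyl-tRNA synthetase, read 763.7 on the LacZ array and 224.3 on the N116Y array, but 311.0 with G12V and between 206.2 and 302.0 on the 3 arrays with TGF-beta3. The LacZ array was the high one of the 6, and the log2 ratio of -1.77 had a counterpart of -0.08 with TGF-beta3. LINC02551, a long noncoding RNA, read 154.7 and 43.29 without TGF-beta and 294.5 and 325.3 with it. ELK1, an ETS factor that ERK phosphorylates, read 124.2 and 46.79 without and 64.09 and 71.69 with TGF-beta3, and the mean of its 3 probe sets gives -0.29. These 3 genes did not pass (limma adjusted p = 0.234, 0.289 and 0.42). HMOX1, the stress-induced heme oxygenase, differed in both states but in opposite directions. It read 26.4 and 52.69 without TGF-beta and 62.19 and 32.2 with it. With a floor of 50 its untreated log2 ratio was 0.08.

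A second probe set of the same gene is another measurement of the same RNA. Of the 104 higher genes, 29 had at least 2 probe sets past the filter, and in 27 of these all probe sets had a positive ratio. Their further probe sets were positive in 41 of 43 cases and at least 2-fold higher in 30. For the lower genes, 19 had at least 2, all probe sets were negative in all 19, and 16 of the 33 further ones were at least 2-fold lower. When all probe sets of a gene were averaged, dim ones included, the log2 ratio was -1.33 for CEMIP, -1.1 for PTGS1, 1.26 for CTSS, 1.2 for TAGLN and 0.44 for NFKBIA. With a floor of 50, it was 1.37 for IL32, 0.38 for MMP13, -0.42 for NID1, -0.27 for SPRR2B and 0.61 for GBP2, whose lower signals lie under that floor.

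The active HRAS G12V had few such differences from the same LacZ array: 14 genes (0.162%) were at least 2-fold higher and 21 (0.242%) at least 2-fold lower among 8660. Both comparisons share the LacZ array, so their values are only given beside each other. The median log2 ratio of the 104 genes was 1.34 for N116Y and -0.09 for G12V, and that of the 62 genes was -1.21 for N116Y and -0.14 for G12V. For the RAS-ERK output list the medians were -0.54 and 0.08, for chemokines 0.58 and -0.36, for class I presentation 0.62 and -0.14, and for interferon-stimulated genes 0.31 and -0.15. DUSP6 had -2.09 with N116Y and 0.14 with G12V, CCL2 2.58 and -1.28, BAMBI 1.87 and -0.61, and CACNG4 3.11 and 2.45.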

How the data were processed

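RNA of HaCaT cells, a human keratinocyte line, was hybridised to Affymetrix arrays, 1 per group. The authors deposited 1 linear intensity per probe set, from MAS5 5.0 according to the submitters' processing notes. The deposited values already had a 2% trimmed mean of 100.01 to 100.02, and precision is limited by the number of arrays. Signals were rescaled to 100, floored at 20 and log2-transformed. Detection calls were not used. Probe sets with 1 gene symbol (41097 of 54675; 1801 had several, 11777 none here) were kept, symbols were updated through RefSeq's gene table (41043 matched), and each of 19775 genes was read from the 1 probe set brightest on average (log2) over the 6 adenovirus arrays. Groups came from the titles.

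The pair was described by log2 ratios at a 2-fold threshold and a signal of 50 on 1 array, with no test. A fit of the 6 arrays used limma 3.58.1 under R 4.3.3 (vector plus TGF-beta, trended eBayes, Benjamini-Hochberg, genes with a signal of 50 on at least 2 arrays, 2 residual and 8.26 prior degrees of freedom). The residual also holds any interaction. Nothing separates cultures within a group, so p-values reflect the spread of these arrays alone, which may be technical. On simulated data of 8985 genes with 200 changed, the fit recovered 18.5% of log2 changes of 0.5, 87% of 1 and 100% of 2, with 11.9%, 7.9% and 7% of its calls false. The simulated noise was independent and normal, with no interaction of vector and TGF-beta, so these rates need not hold for the arrays themselves.

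The comparison, the gene lists and the named genes were chosen with earlier results of these data known. Named are HRAS; the 15 highest and 15 lowest ratios among genes with a signal of 100 on the higher array and above 20 on both; up to 5 members with the largest ratio in each list; all members of the lists of RAS-ERK output, RAS genes, EGF family, chemokines, interleukin-1 family, interferon-stimulated genes and keratinocyte markers; and the 10 genes each way with the largest gap between the TGF-beta states. Promoter windows are RefSeq's for GRCh38.p14. Alternatives changed the floor, filter, scaling, probe set rule, prior and arrays fitted.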

Additional observations from a re-analysis of the deposited data

Results flagged for a closer look

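Ratios of HRAS N116Y to LacZ had opposite signs in the absence and presence of TGF-beta3 for 5 named genes under 4 conditions. The first 3 were 2-fold apart without it, above the floor on all 4 arrays, and a signal of 50 on at least 1 array with TGF-beta3. The last was a ratio with TGF-beta3 beyond 0.216. That value comes from the median residual SD over all genes and is not the SD of these genes. For APCDD1 the SE of the averaged limma change was 0.38. Each state has 1 array a side, so the difference was not tested. APCDD1, an inhibitor of WNT signalling, had a log2 ratio of 1.22 without TGF-beta and -0.42 with it, a difference of 1.64. RHOB, a small GTPase of endosomes, had 1.1 and -0.34, a difference of 1.44. CYRIB, which restrains RAC1, had -1.08 and 0.27, a difference of -1.35. SDHAF3, an assembly factor of succinate dehydrogenase, had -1.22 and 0.28, a difference of -1.51. SOX7, a transcription factor, had -1.14 and 0.31, a difference of -1.45. Other named genes, among them PLEC, LYNX1, LYPD5, LINC02551, ELK1 and PTP4A1, had opposite signs without meeting the last or the third condition. Genes outside the rule for named genes were not listed. LRRFIP1 is one of these, with log2 ratios of -1.03 without TGF-beta and 0.27 with it. None of the first 5 passed in the averaged limma fit, where adjusted p ran from 0.509 to 0.729.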

How the results depend on the processing

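At the 2-fold threshold 104 genes were higher and 62 lower. These counts fell to 69 and 41 with a floor of 50, to 68 and 41 with a filter at a signal of 100, and to 67 and 34 when a gene's probe sets were averaged. They stayed within 1.5 times with a floor of 10, no filter, quantile normalization, unscaled signals, a median ratio set to 0, and the probe set brightest in the pair. The share of higher genes among those 2-fold apart was 62.7%, and 57.0% to 66.3% over these settings. Limma's 134 rising and 72 falling genes became 0 and 0 with no filter (19775 genes; 786 and 519 at an unadjusted p under 0.05), 30 and 15 with the mean of probe sets, 69 and 30 with no trend in the prior, and 284 and 154 without the HRAS G12V arrays; 45 fell with a floor of 50. The cause was not tested. Of 87 named genes that passed in limma, 67 passed in at least 6 of 9 alternatives and 14 in 4 or fewer, among them IL1B, CXCL6, RSAD2, ATF3, MMP13, HMGCS1 and MSMO1. Of 2560 values of 289 named genes, 142 moved by more than 0.216 on the log2 scale, and 98 genes moved with the mean of probe sets. Named genes at least 2-fold apart kept their sign in these settings. In contrast 11 named genes nearer to level, with a ratio other than 0.00, changed sign in some setting, 9 of them with the mean of probe sets. ARAF had the largest ratio of these 11, 0.67. Over the settings the median was -0.63 to -0.32 for RAS-ERK output, 0.28 to 0.34 for interferon-stimulated genes, 0.55 to 0.67 for class I presentation and 0.00 to 0.58 for chemokines. No replicate could be left out of the pair. No paired analysis was possible because each group holds 1 array. Genes below the floor on an array have only a bound there, and a 2-fold difference of a dim gene can be missed.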

Other observations

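Further genes at least 2-fold apart in the untreated pair lay outside the rule for named genes and were picked after their values were seen. Placental-type alkaline phosphatases were higher, ALPP at 624.5 with LacZ and 1578.7 with HRAS N116Y and ALPG at 212.6 and 511.5; they are near-identical paralogs that probe sets may not separate. VGLL1, a cofactor of TEAD factors, read 174.7 and 530.3, the carboxypeptidase inhibitor LXN 445.1 and 1147.1, and CRABP2, which carries retinoic acid, 342.0 and 801.2. The same genes had log2 ratios of 1.65, 1.36, 1.91, 1.33 and 1.03 with TGF-beta3, in the order ALPP, ALPG, VGLL1, LXN and CRABP2. IDO1, the interferon-induced enzyme that degrades tryptophan, read 47.9 and 147.3, and the membrane mucin MUC4 42.7 and 117.7. PIK3R3, a regulatory subunit of PI3K, read 95.3 and 304.3.

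Lower genes outside the rule included UPP1, a uridine phosphorylase, at 852.2 with LacZ and 405.4 with HRAS N116Y, and the transcription factor FOXD1 at 484.5 and 232.6. The thrombin receptor F2R read 56.1 and 20.4. PHLDA2, a placental growth restraint gene related to PHLDA1, read 843.4 and 403.3 without TGF-beta, a log2 ratio of -1.06, but had a ratio of 0.09 with TGF-beta3.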
